A study of Danio rerio with 9 samples.

Results

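The genes described here code for 10 factors that travel with or act on RNA polymerase II during transcript elongation: paf1, ctr9, rtf1, cdc73 and leo1 of the Paf1 complex, supt5h of DSIF, supt6h (SPT6), supt16h and ssrp1a of FACT, and nelfb of NELF. They were chosen by symbol, and all 10 symbols were found among the 30649 named rows of the deposited count tables. All 10 had enough reads to be tested, as did 15169 genes in all. RNA came from 9 zebrafish melanomas, 5 from fish injected with MiniCoopR carrying CDK13 R860Q and 4 from fish injected with MiniCoopR carrying EGFP. Every fish was p53-/-, mitfa:BRAFV600E and Na-/-, so the controls shared the loss of p53 and the BRAF V600E oncogene driven by the melanocyte promoter mitfa. MiniCoopR returns mitfa together with the gene of interest, which is why the pigment cells that come back carry the vector. CDK13 R860Q is a mutant of a human cyclin-dependent kinase that pairs with cyclin K and acts on RNA polymerase II. The labels give no age and do not tie tumours to single fish. The p-values set the difference between groups against the spread between samples of a group, and these samples may not be separate fish. There were no tumours given wild-type CDK13, so the mutation and added human CDK13 cannot be told apart.

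Shortly after starting a transcript, RNA polymerase II pauses with DSIF and NELF bound to it. The kinase P-TEFb phosphorylates both factors and the polymerase, NELF leaves, and DSIF stays on as a factor that aids elongation. The Paf1 complex then joins and is needed for ubiquitination of histone H2B, while SPT6 and FACT take nucleosomes apart ahead of the polymerase and rebuild them behind it. In zebrafish, Paf1 complex genes are required for neural crest derivatives, pigment cells among them, and for the heart, and supt5h is the gene mutated in foggy.

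Total counts ran from 5518472 to 15120176 per tumour. Small noncoding RNA rows held from 22.3% of these counts in EGFP R164 to 39.8% in EGFP R162. The row for human CDK13 held 114 to 7239 reads in the R860Q tumours and 0 to 5 in the EGFP tumours. The melanocyte genes mitfa, dct, tyr, pmela and sox10 were detected in every tumour, with pmela between 636 and 5686 CPM (counts per 1000000, normalised for library composition). Skeletal muscle markers, of which 20 of 27 were tested and tnnt3a had no read, summed to 27.3 to 5054 CPM in R860Q and 11.4 to 1312 CPM in EGFP tumours. The EGFP tumours R162 and R164 stood apart on the first principal component, which held 24.5% of the variance, and EGFP R162 had the lowest normalisation factor (0.650). By the quasi-likelihood test of edgeR, adjusted over all tested genes by Benjamini-Hochberg, 0 of 15169 genes differed between the groups at an adjusted p under 0.05 (0%), while 931 genes (6.14%) had an unadjusted p under 0.05. DESeq2 called 68 of 14977 genes (0.454%).

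None of the 10 elongation factors differed between R860Q and EGFP tumours by edgeR or by DESeq2, and 0 had an unadjusted edgeR p under 0.05. The groups overlapped for each of the 10 genes, where 1.43% of all tested genes had groups that did not overlap. The fitted log2 fold change, R860Q over EGFP, was above 0 for 8 of the 10 and below 0 for cdc73 and nelfb, with a median of 0.29. Over all tested genes 47.2% lay above 0 and the median was -0.03. Among the 6199 tested genes with a mean level between those of nelfb (11.5 CPM) and supt6h (64.0 CPM), 48.6% lay above 0 and the median was -0.01. Markers of several other cell types lay mostly to 1 side between the same groups, with 0 called. Fold changes were above 0 for 20 of 20 tested skeletal muscle markers, 2 of 19 macrophage, 1 of 9 T and NK lymphocyte, 0 of 11 keratinocyte and 5 of 9 erythrocyte markers, and for 3 of 11 melanocyte markers. Macrophage markers summed to 1187 to 3312 CPM in R860Q and 1314 to 4214 CPM in EGFP tumours. No test was made of their part in the members' values, and the only refit for a cell type took the muscle score as a covariate. With it 9 of the 10 lay above 0 (median 0.36) and 0 were called. In that fit rtf1 was at 0.11, and nelfb changed sign to 0.18. The tumours were dissected in bulk, so fewer cells of a type and less RNA per cell cannot be told apart in any of these values.

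**Figure D1:**
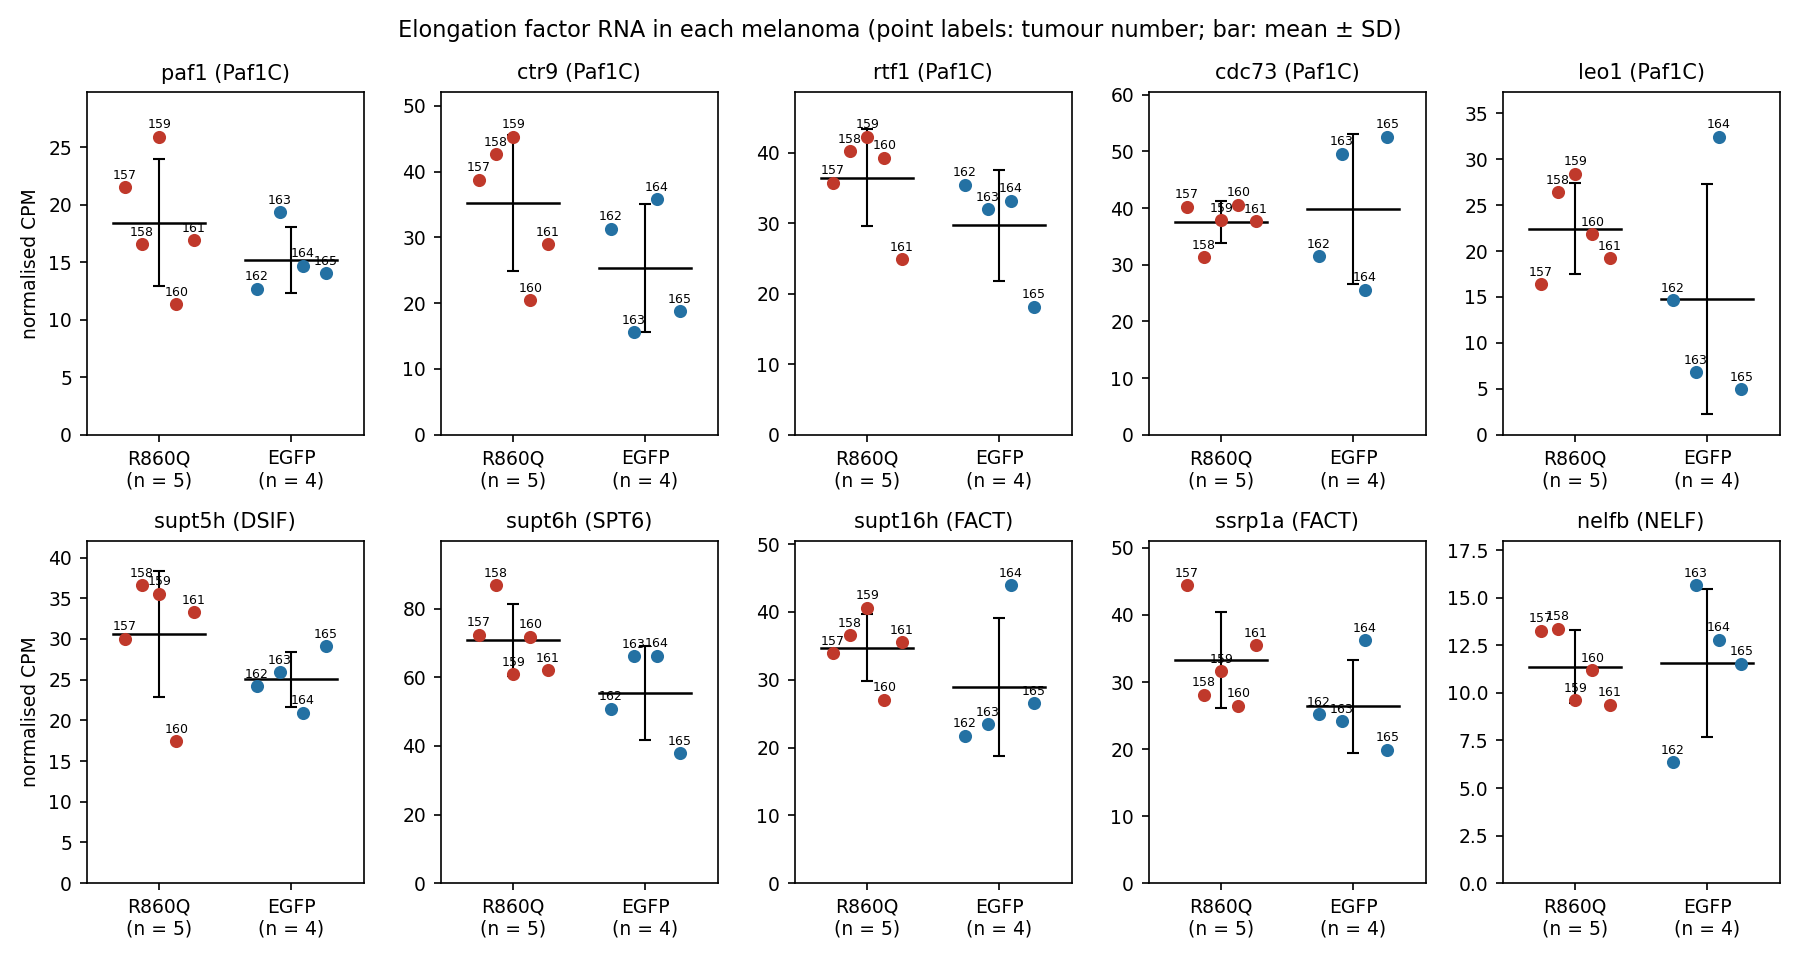
Normalised CPM of the 10 elongation factors (vertical axes from 0) in each of 5 R860Q (red) and 4 EGFP (blue) melanomas, with tumour numbers beside the points and the mean ± SD in black. The groups overlap in every panel, and the widest spread is that of leo1 in EGFP tumours, from 4.97 to 32.5 CPM.

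Paf1, the subunit that gives the complex its name, was at 21.6, 16.6, 25.9, 11.3 and 16.9 CPM in R860Q tumours R157 to R161. In EGFP tumours R162 to R165 it was at 12.7, 19.4, 14.7 and 14.0 CPM. The lowest and the highest tumour were both R860Q, and the EGFP range lay inside the R860Q range. For paf1 the log2 fold change was 0.28 ± 0.28 (SE; edgeR adjusted p = 0.941), with a 95% interval from -0.34 to 0.89, and it was 0.13 without R860Q R159 and 0.42 without EGFP R163.

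Ctr9, a repeat protein on which the other subunits assemble, was at 38.8, 42.6, 45.3, 20.5 and 29.0 CPM in R860Q tumours R157 to R161 and at 31.3, 15.6, 35.8 and 18.8 CPM in EGFP tumours R162 to R165. R860Q R157 to R159 were above every EGFP tumour, while R860Q R160 and R161 were below EGFP R162 and R164. The log2 fold change was 0.48 ± 0.33 (SE; edgeR adjusted p = 0.934), with a 95% interval from -0.26 to 1.21. Without EGFP R163 it was 0.31, so this single tumour moved the value by over 1.5 times. Without EGFP R162 and R164, an alternative chosen after seeing the data, it was 1.04 (edgeR adjusted p = 0.520). These were the EGFP tumours with the most ctr9, so leaving them out raises the value by itself.

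Rtf1, the subunit that stimulates H2B ubiquitination, was at 35.7, 40.2, 42.3, 39.3 and 24.9 CPM in the R860Q tumours and at 35.5, 32.0, 33.2 and 18.1 CPM in the EGFP tumours, in the same order of tumour numbers. In each group 1 tumour was low (R860Q R161 and EGFP R165), and the remaining tumours lay between 32.0 and 42.3 CPM. The rtf1 log2 fold change was 0.30 ± 0.27 (SE; edgeR adjusted p = 0.941) and 0.12 without EGFP R165.

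Cdc73, the subunit known in human as the tumour suppressor parafibromin, was at 40.3, 31.3, 37.9, 40.6 and 37.7 CPM in R860Q and at 31.6, 49.6, 25.6 and 52.6 CPM in EGFP tumours. The R860Q tumours lay inside the EGFP range, with the lowest and the highest values both in EGFP tumours. Its fold change on the log2 scale was -0.09 ± 0.26 (SE; edgeR adjusted p = 0.987), with a 95% interval from -0.66 to 0.49. In RefSeq's table for GRCz12tu, another build than that of the counts, cdc73 overlaps the gene ro60, which the files count as trove2. In that build cdc73 also overlaps the protein-coding gene LOC101882239, which was not found by symbol or synonym among the counted rows. The sources used here do not say how reads were split between overlapping genes. The trove2 row was at 9.31 CPM in EGFP R163 and 11.8 CPM in EGFP R165, the tumours with the most cdc73, and between 11.6 and 18.2 CPM in the other tumours.

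Leo1, an acidic subunit that binds the complex to histones and RNA in yeast, varied most. It was at 16.4, 26.4, 28.4, 21.8 and 19.2 CPM in R860Q tumours R157 to R161. In EGFP tumours R162 to R165 it was at 14.7, 6.84, 32.5 and 4.97 CPM. The EGFP tumours held both extremes, 6.52-fold apart, with EGFP R164 above and EGFP R162, R163 and R165 below every R860Q tumour. These values rested on 60 to 255 reads. Exact Poisson 95% intervals, which cover counting error only, ran from 4.01 to 6.11 CPM in EGFP R165 and from 5.45 to 8.48 CPM in EGFP R163. That of EGFP R164 (28.3 to 37.0 CPM) overlapped that of R860Q R159 (24.6 to 32.7 CPM). That of EGFP R162 (11.2 to 18.9 CPM) overlapped that of R860Q R157 (14.3 to 18.7 CPM). The log2 fold change was 0.62 ± 0.50 (SE; edgeR adjusted p = 0.938), with a 95% interval from -0.48 to 1.71. It depended on single EGFP tumours: it was 1.37 without EGFP R164 (adjusted p = 0.915), 0.38 without EGFP R163 and 0.32 without EGFP R165. Without EGFP R162 and R164, an alternative chosen after seeing the data, it was 1.92 ± 0.35 (SE, edgeR adjusted p = 0.295). These were the EGFP tumours with the most leo1, so leaving them out raises the value by itself.

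Within a tumour, the reads of a subunit relative to those of another do not depend on the normalisation of the library. Leo1 had 0.407, 0.844, 0.750, 0.538 and 0.509 reads for each cdc73 read in R860Q tumours R157 to R161. In EGFP tumours R162 to R165 the ratio was 0.465, 0.138, 1.27 and 0.0946. EGFP R163 and R165 were the lowest and EGFP R164 the highest of the 9 tumours. The ctr9 to cdc73 ratio was also lowest in EGFP R163 (0.314) and EGFP R165 (0.358) and highest in EGFP R164 (1.40), with R860Q tumours between 0.505 and 1.36. For paf1 the ratio to cdc73 spanned less, from 0.267 in EGFP R165 to 0.685 in R860Q R159. The deepest libraries were EGFP R165, EGFP R163 and R860Q R157, at 15120176, 11206732 and 11150732 counts. In each group the tumours with the lowest leo1 to cdc73 ratio were among these, R860Q R157 having the lowest R860Q ratio (0.407). The next deepest library, R860Q R158 at 9630197 counts, had the highest R860Q ratio (0.844). The muscle marker score, the mean log2 CPM of the markers after centring each on its mean, was -2.69 and -2.59 in EGFP R163 and R165 and -3.13 in EGFP R164. The T and NK lymphocyte score was -0.55, 2.0 and 0.89 in EGFP R163, R165 and R164, and the keratinocyte score 0.29, 2.01 and -0.45. In EGFP R162 the lymphocyte and keratinocyte scores were 0.73 and -1.76. Of these lists, 9 of 17 lymphocyte and 11 of 17 keratinocyte markers were tested, 0 were called and no marker in the files was at 0 throughout. Summed lymphocyte markers ran from 313 to 764 CPM in R860Q and from 471 to 1072 CPM in EGFP tumours, and summed keratinocyte markers from 411 to 1188 and from 166 to 3188 CPM. The part of depth and of other cells in the leo1 values was not tested.

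**Figure D2:**
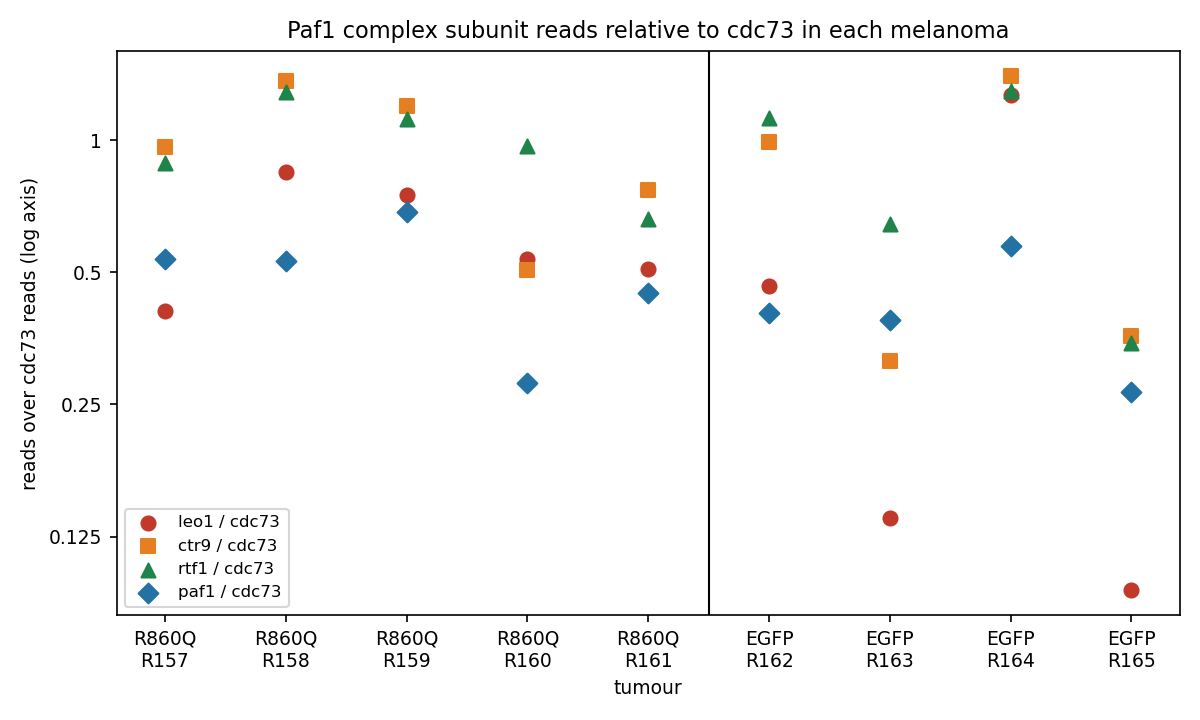
Reads of leo1, ctr9, rtf1 and paf1 divided by the reads of cdc73 (log axis) in each of the 9 melanomas, R860Q to the left of the line and EGFP to the right. The leo1 ratio runs from 0.0946 in EGFP R165 to 1.27 in EGFP R164, with all R860Q tumours between 0.407 and 0.844.

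Supt5h, the large subunit of DSIF, was at 30.1, 36.6, 35.6, 17.4 and 33.3 CPM in R860Q tumours R157 to R161 and at 24.2, 25.9, 21.0 and 29.1 CPM in EGFP tumours R162 to R165. R860Q R160 was the lowest of all 9, and the other R860Q tumours were all above the EGFP tumours. The closest of these overlapped in Poisson 95% interval, R860Q R157 (27.2 to 33.1 CPM) and EGFP R165 (26.7 to 31.7 CPM). How many tested genes separate the groups with R860Q R160, or any single tumour, set aside was not counted. The supt5h log2 fold change was 0.29 ± 0.26 (SE; edgeR adjusted p = 0.941) and 0.44 without R860Q R160. NELF, the partner of DSIF in pausing, was represented by nelfb at 13.3, 13.4, 9.62, 11.2 and 9.38 CPM in R860Q and 6.36, 15.7, 12.8 and 11.5 CPM in EGFP tumours. The EGFP tumours again held the lowest and the highest value, from 26 and 190 reads. The nelfb log2 fold change was -0.03 ± 0.29 (SE; edgeR adjusted p = 0.998), with a 95% interval from -0.67 to 0.60.

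Supt6h, the histone chaperone SPT6, was at 72.5, 86.9, 60.9, 71.8 and 62.1 CPM in R860Q and at 50.9, 66.3, 66.4 and 37.9 CPM in EGFP tumours. R860Q R159 and R161 lay below EGFP R163 and R164, and the other 3 R860Q tumours lay above all EGFP tumours. The supt6h log2 fold change was 0.36 ± 0.25 (SE; edgeR adjusted p = 0.933), with a 95% interval from -0.19 to 0.90. Without EGFP R165 it was 0.21.

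FACT is a pair of proteins, Supt16h and Ssrp1, that holds histones H2A and H2B while the polymerase passes. Supt16h RNA was at 33.9, 36.6, 40.7, 27.0 and 35.5 CPM in R860Q and 21.8, 23.4, 43.9 and 26.5 CPM in EGFP tumours. Ssrp1a RNA was at 44.4, 28.1, 31.6, 26.5 and 35.5 CPM in R860Q and 25.2, 24.2, 36.2 and 19.9 CPM in EGFP tumours. In both genes EGFP R164 was the highest EGFP tumour, above every R860Q tumour for supt16h. The other 3 EGFP tumours were measured below every R860Q tumour. The closest of these overlapped in Poisson interval. For supt16h they were EGFP R165 (24.2 to 29.0 CPM) and R860Q R160 (23.3 to 31.2 CPM). For ssrp1a they were EGFP R162 (20.6 to 30.6 CPM) and R860Q R160 (22.8 to 30.6 CPM). The supt16h intervals of EGFP R164 (39.1 to 49.2 CPM) and R860Q R159 (36.0 to 45.7 CPM) also overlapped. How many tested genes show this order with EGFP R164 set aside was not counted. The log2 fold changes were 0.27 ± 0.26 for supt16h and 0.34 ± 0.26 for ssrp1a (SE; edgeR adjusted p = 0.941 and 0.938), and without EGFP R164 they were 0.54 and 0.53. Supt16h was at 0.15 without EGFP R162, and ssrp1a at 0.21 without R860Q R157. The other zebrafish SSRP1 gene, ssrp1b, given as its paralog, stood at 0.11 ± 0.34 (20.1 ± 6.99 CPM in R860Q, SD, n = 5, and 18.6 ± 5.77 CPM in EGFP tumours, SD, n = 4). As related copies, ssrp1a and ssrp1b may share reads, and their split is uncertain.

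**Figure D3:**
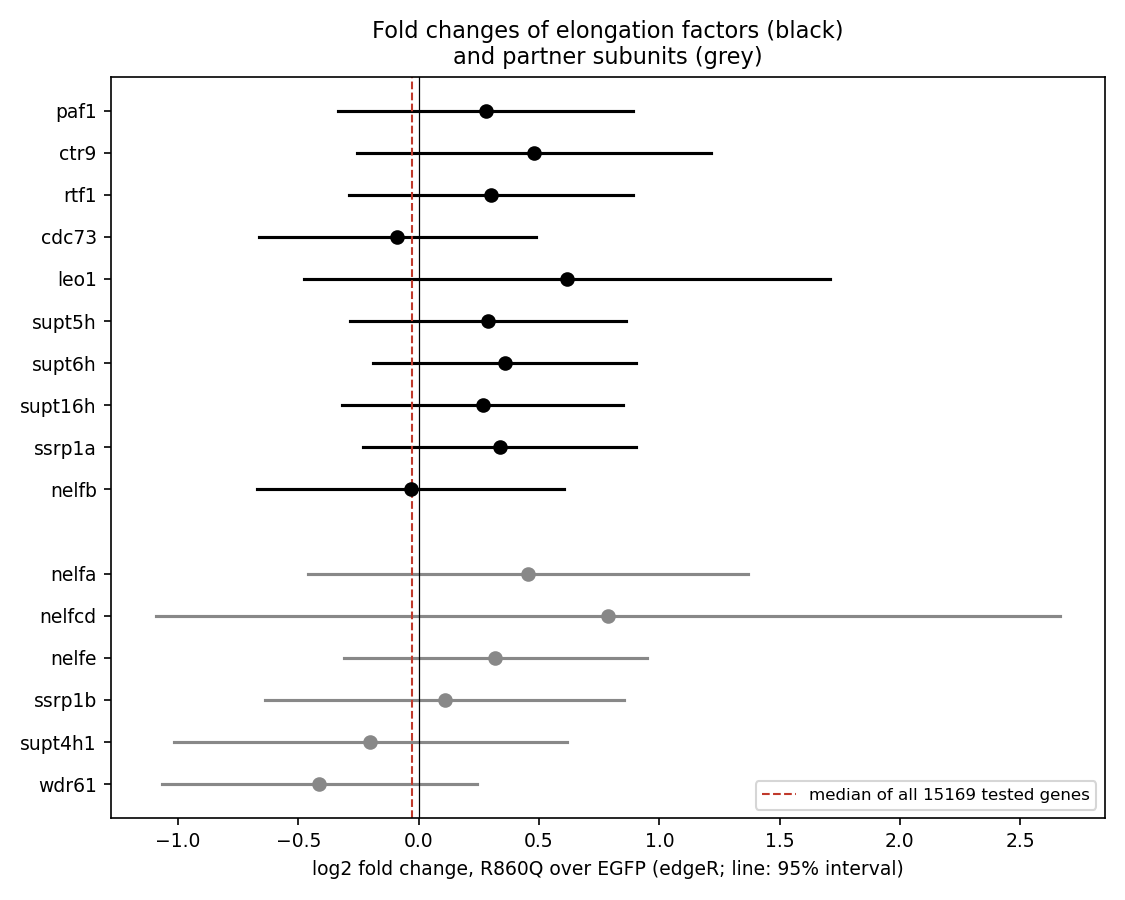
Log2 fold change, R860Q over EGFP, with its 95% interval from edgeR for the 10 elongation factors (black) and 6 partner subunits of the same complexes (grey). The dashed line is the median of all tested genes, -0.03. Every interval includes 0, and those of leo1 and nelfcd are wide.

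The intervals give the sizes of difference compatible with these tumours. Apart from ctr9 and leo1, whose upper bounds were 1.21 and 1.71, the upper bounds of the 10 genes were at most 0.90 on the log2 scale, below a log2 fold change of 1. The lower bounds of all 10 were at or above -0.67. Bounds were not computed with single tumours left out, where fold changes moved. Supt16h was at 0.54 ± 0.24 and ssrp1a at 0.53 ± 0.26 without EGFP R164 (SE). Paf1 was at 0.42 ± 0.30 and supt6h at 0.46 ± 0.28 without EGFP R163 (SE). The bounds of the main fit therefore do not set a limit for every choice of tumours.

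The 10 genes varied less between tumours of a group than tested genes did in general, leo1 excepted. The within-group SD of log2 CPM had a median of 0.36 over the 10, against 0.57 over all tested genes and 0.48 over genes of the same range of mean level. It was below the median of all tested genes for 9 of the 10, a description without a test. Against genes of the same range it was below the median for 8, with ctr9 (0.52) and leo1 above. The smallest was that of supt6h (0.30, the 8.53 percentile of all tested genes) and the largest that of leo1 (0.81, the 73.7 percentile). Low spread was not particular to the 10. Tested genes of P-TEFb, the 7SK particle and the CDK12/CDK13 kinases ran from 0.17 (hexim1) to 0.52 (ccnt1), all below the median of all tested genes. RNA polymerase II subunits ran from 0.20 (polr2a) to 0.99 (polr2i). Averaged over the 10 genes, the deviation of log2 CPM from each gene's mean was 0.23, 0.26, 0.31, -0.10 and 0.04 in R860Q tumours R157 to R161. In EGFP tumours R162 to R165 it was -0.26, -0.17, 0.13 and -0.43. EGFP R164 lay inside the R860Q range, and the other EGFP tumours below it.

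**Figure D4:**
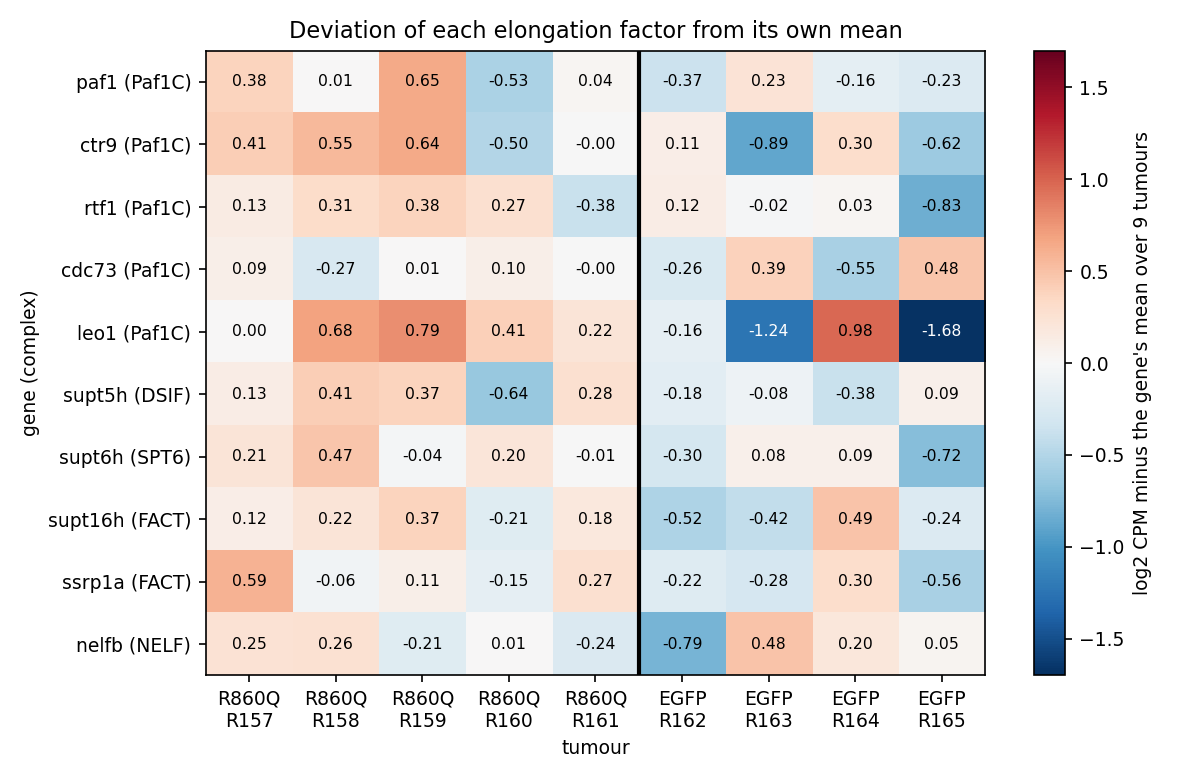
Log2 CPM of each elongation factor (rows) in each tumour (columns), centred on the mean of the gene over all 9, with R860Q to the left of the line. Leo1 shows the strongest colours, -1.24 in EGFP R163, -1.68 in EGFP R165 and 0.98 in EGFP R164, and cdc73 has the opposite sign in these tumours (0.39, 0.48 and -0.55).

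Pairs of the 10 genes differed in how closely their levels kept in step. The SD of the log2 ratio of the genes of a pair over the 9 tumours had a median of 0.49 over the 45 pairs and ran from 0.26 to 1.19. The closest pairs were rtf1 with supt6h (0.26), the FACT partners supt16h and ssrp1a (0.28) and paf1 with supt5h (0.29). This ranks pairs within the 10 only. By root mean square difference of centred log2 CPM, each of these genes had a closer gene outside the 10. For supt16h that difference was 0.099, against 0.27 for ssrp1a and a median of 0.64 over tested genes. The reads of supt16h for each ssrp1a read lay between 0.763 in R860Q R157 and 1.33 in EGFP R165. The widest pair was cdc73 with leo1 (1.19), both of the Paf1 complex, and the 9 pairs with leo1 had a median of 0.74 against 0.46 for the 36 without it. The points of each pair share the same 9 libraries, and no test was made of these spreads.

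Outside the 10 genes, those whose profile over the 9 tumours was nearest to the mean of the 5 Paf1 complex subunits were ywhaz, a 14-3-3 protein, the chaperone gene hsp90ab1 and si:ch211-195b21.5. Their root mean square differences were 0.13, 0.15 and 0.15 on the log2 scale, where the median over tested genes was 0.61. Nearest to the mean of all 10 were the deacetylase gene hdac10 (0.13) and the RNA helicase genes ddx42 (0.15) and dhx38 (0.15), against a median of 0.59. Hdac10 was at a low level, from 2.24 CPM in EGFP R165 to 3.88 CPM in R860Q R157. For leo1 alone, looked up after its values were seen, the nearest gene was slc7a6os (0.24, median 1.03), which is related to a yeast factor for nuclear import of RNA polymerase II. It was at 14.8, 18.7, 19.8, 12.7 and 20.2 CPM in R860Q R157 to R161 and at 13.0, 5.44, 25.9 and 3.28 CPM in EGFP R162 to R165. Like leo1, slc7a6os was lowest in EGFP R163 and R165 and highest in EGFP R164. With so many genes and 9 tumours, some gene will lie close to any profile.

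Of 7 partner subunits and cofactors of the same complexes, 6 were in the files and tested, and 0 were called in either direction. Their median log2 fold change was 0.21, with 4 above 0. The smallest p-values were those of wdr61, a Paf1 complex subunit shared with the Ski complex (-0.41 ± 0.30), and nelfe, the RNA-binding subunit of NELF (0.32 ± 0.29, SE; edgeR adjusted p = 0.938 and 0.941), the latter at 0.48 without R860Q R161. The NELF subunit gene nelfcd, singled out after its values were seen, was at 18.9, 14.2, 16.3, 20.6 and 184 CPM in R860Q R157 to R161. In EGFP R162 to R165 it was at 22.0, 58.4, 23.9 and 13.2 CPM. R860Q R161 thus held far more nelfcd RNA than any other tumour, from 1294 reads. There nelfb, nelfe and nelfa were at 9.38, 16.2 and 1.99 CPM. In the other tumours they ran from 6.36 to 15.7, from 19.1 to 39.8 and from 1.16 to 2.91 CPM. The nelfcd log2 fold change of 0.79 ± 0.85 (SE; edgeR adjusted p = 0.944) became -0.75 without R860Q R161.

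Among 11 tested genes of P-TEFb, the 7SK particle and the CDK12/CDK13 kinases, 0 were called and 9 lay above 0 (median 0.14). Only hexim1, which holds P-TEFb inactive in the 7SK particle, had an unadjusted p under 0.05 in this list (6.14% of all tested genes did). It was at 42.1, 45.2, 40.7, 39.7 and 43.6 CPM in R860Q and 26.4, 34.6, 30.6 and 23.5 CPM in EGFP tumours, which do not overlap (1.43% of all tested genes do not). Its log2 fold change of 0.55 ± 0.21 (SE; edgeR adjusted p = 0.759) did not pass the test. The kinase of P-TEFb, cdk9, stood at 0.08 ± 0.26.

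The other lists had no called gene either. Each had at most 1 gene with an unadjusted edgeR p under 0.05, as 6.14% of all tested genes had. The partner, super elongation complex, TFIIS and initiation lists had 0. H2B ubiquitination and histone-mark genes had a median of 0.20 over 13 tested (8 above 0). Rnf40, part of the ubiquitin ligase that works with the Paf1 complex, was the member with an unadjusted p under 0.05. It was at 62.6, 70.1, 52.9, 65.7 and 75.6 CPM in R860Q R157 to R161 and at 38.6, 42.4, 54.9 and 43.1 CPM in EGFP R162 to R165, with R860Q R159 below EGFP R164. Its log2 fold change was 0.55 ± 0.22 (SE; edgeR adjusted p = 0.764). Of 12 tested RNA polymerase II subunits 9 lay below 0 (median -0.22). The largest subunit, polr2a, had an unadjusted p under 0.05 and lay on the other side. It was at 66.5, 85.6, 68.5, 62.4 and 57.9 CPM in R860Q and at 58.2, 45.5, 47.9 and 43.1 CPM in EGFP tumours, with R860Q R161 just below EGFP R162. Its log2 fold change was 0.49 ± 0.22 (SE; edgeR adjusted p = 0.809).

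The super elongation complex list had 2 of 10 above 0 (median -0.13). Its smallest p-values were those of aff2, a relative of its scaffold proteins (-0.90 ± 0.50), and ice1, a partner of ELL in snRNA transcription (-0.38 ± 0.30, SE; edgeR adjusted p = 0.893 and 0.938). Aff2 rested on few reads, 3 to 15 in the R860Q tumours and 8 to 43 in the EGFP tumours. It was at -1.18 without EGFP R163 and at -0.66 without EGFP R165. Ice1 was at -0.57 without EGFP R165 and at -0.23 without EGFP R162. TFIIS, elongin and other elongation genes had 13 of 15 above 0 (median 0.08), with rprd2b, related to factors that bind the polymerase tail, at 0.53 ± 0.38 and tcerg1a, a factor linking elongation and splicing, at 0.43 ± 0.33 (SE; edgeR adjusted p = 0.938 for both). Without EGFP R165 these were 0.30 and 0.25. Initiation and Mediator genes had 17 of 26 above 0 (median 0.08). There the TFIIF subunit gtf2f1 stood at 0.84 ± 0.53, or 1.60 without EGFP R164 and 0.54 without EGFP R165, and the TFIIH subunit gtf2h5 at -0.63 ± 0.49, or 0.16 without EGFP R162 (SE; edgeR adjusted p = 0.921 and 0.938).

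**Figure D5:**
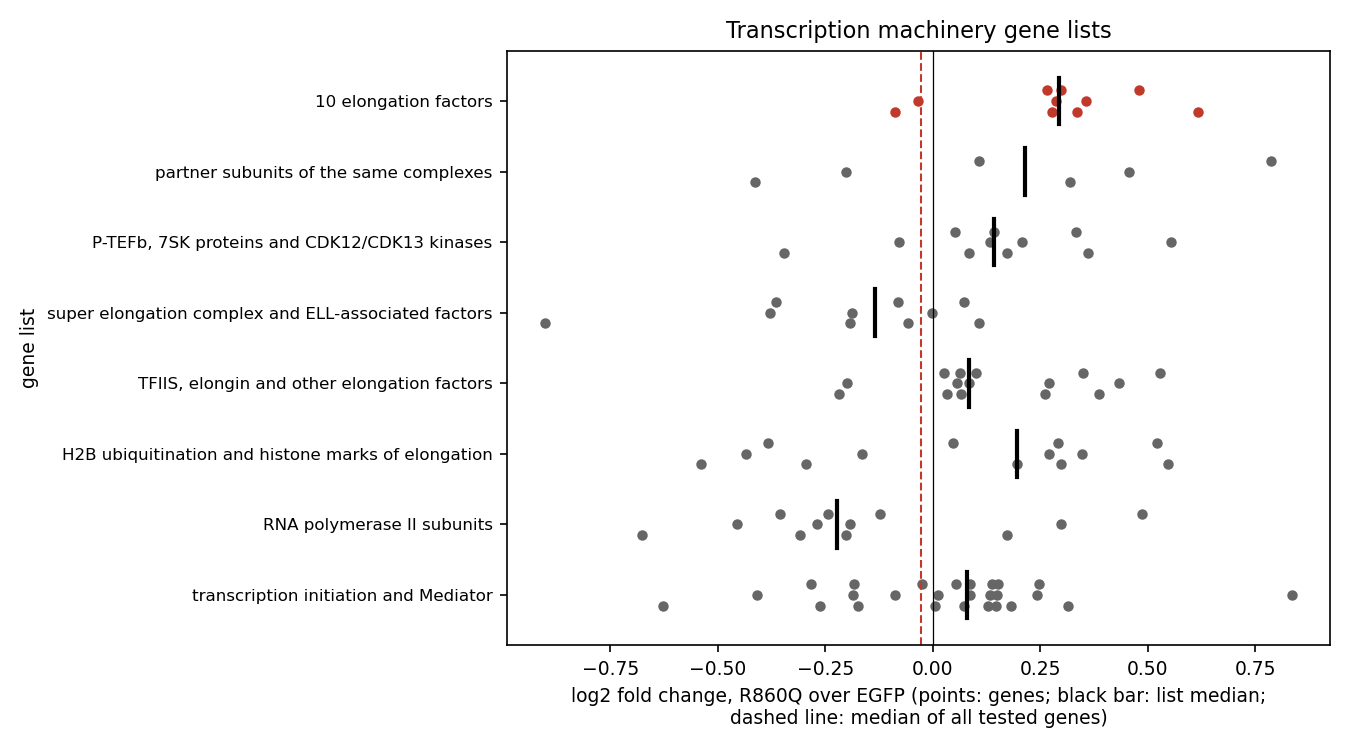
Log2 fold change, R860Q over EGFP, of every tested gene (points) in the 10 elongation factors (red) and 7 other lists of transcription genes (grey), with the median of each list as a black bar and the median of all tested genes as a dashed line. In the main fit the elongation factors have the highest median (0.29) and the RNA polymerase II subunits the lowest (-0.22), and no gene shown passed the test. Without EGFP R165 the median of the elongation factors was 0.22, and medians of the other lists are not given for that fit. The partner subunits had 0.21 in the main fit.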

How the data were processed

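Expression was measured in ribosome-depleted total RNA of 9 tumours, prepared by random priming and sequenced as 100-bp read pairs, per the labels' protocols. Bowtie, HTSeq and the build danRer10 (GRCz10) are named without versions, per the submitters' processing notes; strand setting and the treatment of overlapping genes are not given in the sources used here. The deposited values are raw read counts per gene symbol, made by the authors and not normalised. Of each table, 1 opening line without a name or count was left out. Random priming also captures unspliced RNA. Intervals from counts cover counting error only. Reads carried no molecular identifiers, so copies made by PCR could be counted as separate reads, and these intervals may be too narrow. Orders of tumours are those of the measured values, and neighbours in an order can lie within counting error. Counts were per gene without lengths, so CPM or reads of different genes set side by side do not give relative transcript numbers.

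Low genes were removed with filterByExpr (minimum count 10, minimum total 15), and counts were scaled by TMM in edgeR 4.0.16 (R 4.3.3). Groups follow the titles and share no replicate number. The comparison used the quasi-likelihood test, robust, with no term besides group, and p-values were adjusted by Benjamini-Hochberg over all 15169 genes (threshold 0.05). Intervals are the fold change ± the t quantile times its SE (95%). CPM are per 1000000 of scaled library size; a prior count of 2 was added before taking log2. The smallest chi-square per degree of freedom between tumours of a group was 64.2, which shows differences beyond counting error. It cannot show that tumours came from separate fish. All 9 were treated as separate samples. Overlaps of genes were looked up in RefSeq's table for GRCz12tu. The test was checked on simulated counts.

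The 10 genes and all lists were chosen with earlier results of these data known. Named genes were the 10, in each other list those with an unadjusted p under 0.05 or otherwise the 2 with the smallest p, and the 3 genes nearest in profile. Outside this rule, chosen after values were seen, are nelfcd, nelfa, slc7a6os, trove2, cdk9 and ssrp1b. Alternatives were DESeq2's size factors, upper-quartile factors, no filter, a filter of CPM 1 in 4 tumours, dispersion not robust, the DESeq2 1.42.0 test, voom in limma 3.58.1 with weighted samples, a surrogate variable (sva 3.50.0), the muscle score as a covariate, removal of 384 small noncoding RNA rows, and leaving out each tumour. Leaving out EGFP R162 and R164 together was added after seeing the data.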

Additional observations from a re-analysis of the deposited data

Results flagged for a closer look

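In 3 of the 20 sets of tumours examined (10 genes in 2 groups), a single tumour stood apart from its group. The rule was the Dixon ratio on the log2 scale, the gap to the nearest tumour over the range of the group. Chance alone gives about 1 in 20 if the sets are independent, and these sets share the same 9 libraries. Rtf1 was low in EGFP R165, at 18.1 CPM against 32.0 to 35.5 CPM in the other EGFP tumours. Cdc73 was low in R860Q R158, at 31.3 CPM against 37.7 to 40.6 CPM in the other R860Q tumours. Its ratio of 0.714 only just passed the critical value of 0.71. The Poisson 95% interval of R860Q R158 (27.9 to 35.1 CPM) overlapped that of R860Q R161 (33.3 to 42.5 CPM). Supt5h was low in R860Q R160, at 17.4 CPM against 30.1 to 36.6 CPM in the other R860Q tumours.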

How the results depend on the processing

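No paired analysis was possible because the groups share no replicate number. Of 200 member fold changes recomputed under 20 alternatives, 192 had the main direction and stayed uncalled, 8 changed sign and 0 became called (adjusted p from 0.295 to 0.9997). The sign changed for cdc73 with limma voom (0.12) and for nelfb with the muscle score as a covariate (0.18); with single tumours left out cdc73 ran from -0.25 to 0.072 and nelfb from -0.23 to 0.15. Values that moved by over 1.5 times without a change of sign included rtf1 with the muscle score (0.11), leo1 (1.09), cdc73 (-0.17) and nelfb (-0.14) with the surrogate variable, supt16h with voom (0.14), and, without EGFP R162 and R164, leo1 (1.92), ctr9 (1.04), rtf1 (0.54), ssrp1a (0.59), supt16h (0.48), paf1 (0.14), supt5h (0.15), cdc73 (-0.45) and nelfb (-0.26). The number of the 10 above 0 was between 8 and 10, and their median log2 fold change between 0.22 without EGFP R165 and 0.46 without EGFP R162 and R164. The number of all genes called was 68 by DESeq2, 1 without EGFP R162 and R164, between 0 and 1 with single tumours left out, and 0 under the other alternatives; the cause was not tested. The tumours left out of the pair comparison leave 2 EGFP tumours, so fewer samples alone could move its values. Depth limits nelfb most, with 26 reads in EGFP R162.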
